A study of Mus musculus with 6 samples.

Results

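Genes of 5-, 12- and 15-lipoxygenase and of the enzymes that make leukotrienes and prostaglandins were compared between the lungs of wild-type mice and of mice with an Scnn1b transgene (Scnn1b-Tg), all of the C57BL/6 background. The members were chosen by name (Alox15, Alox12, Alox5, Alox5ap, Lta4h, Ltc4s, Ptgs1, Ptgs2, Hpgds and Ptges). Of these 10, 9 had a probe set annotated to that symbol alone, among 19935 genes measured in all, and Ptgs1 was not analysed here. Whole-lung RNA was hybridised to 6 arrays, 3 per genotype, with the stated purpose of finding emphysema candidate genes. The transgene codes for the β chain of the airway epithelium's sodium channel, and in the published Scnn1b-Tg line it is driven by a club cell secretory protein promoter. The labels give no promoter, age, sex or treatment. They also do not say whether the replicates are different mice, so each p-value reflects only the spread among these samples, which may be technical.

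Eicosanoids are signalling lipids made from arachidonic acid, which phospholipases release from membranes. 5-lipoxygenase (Alox5), helped by its membrane partner FLAP (Alox5ap), makes leukotriene A4, which Lta4h turns into LTB4, a neutrophil attractant, and Ltc4s into the cysteinyl leukotrienes that constrict airways. The mouse 12/15-lipoxygenase Alox15, a gene induced by IL-4 and IL-13, is known from macrophages and eosinophils, Alox12 from platelets. Cyclooxygenases such as Ptgs2 start the prostaglandin branch, which Hpgds completes to PGD2 and Ptges to PGE2.

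The arrays were comparable in scale, with median intensities (linear values per probe set, made with RMA) between 47.6 and 48.5 and lowest values between 18.3 and 18.6. Scnn1b was above all wild-type values on every transgenic array (log2 fold change 3.37 ± 0.16, SE). Lung markers were bright on all arrays: Sftpc, the surfactant protein of alveolar type 2 cells, lay between 7241 and 8534, and Scgb1a1 of club cells between 3948 and 4579 in wild type and between 3379 and 3660 in Scnn1b-Tg. On the first 2 principal components over all genes, which hold 34.0% and 22.6% of the variance, wild type replicate 2 and Scnn1b-Tg replicate 3 stood apart. In whole lung, fewer cells of a type and less RNA per cell cannot be told apart.

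The higher values in Scnn1b-Tg lung were those of Alox15, Alox5 and Alox5ap, the lipoxygenases of leukocytes and the partner protein of one of them. For each of these 3 genes the lowest transgenic array was above the highest wild-type array, and for the 6 other members measured the genotypes overlapped. None of the 9 passed an adjusted p under 0.05 in limma with Benjamini-Hochberg adjustment over all genes. Of all genes 0.00502% passed as higher and 0% as lower. At an unadjusted p under 0.05, 3 of 9 members were higher and 0 lower, where 3.96% of all genes were higher and 2.05% lower. Arrays lay wholly above wild type for 6.26% of genes and wholly below for 4.41%. The members were chosen with earlier results of these data known, so these counts describe the list and are no test of it. All 9 fitted values were above 0, but those of Alox12, Lta4h and Ptges, at 0.03 or less, turned negative after quantile normalization. The median log2 fold change was 0.10 over the 9 members and 0.0052 over all genes.

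**Figure D1:**
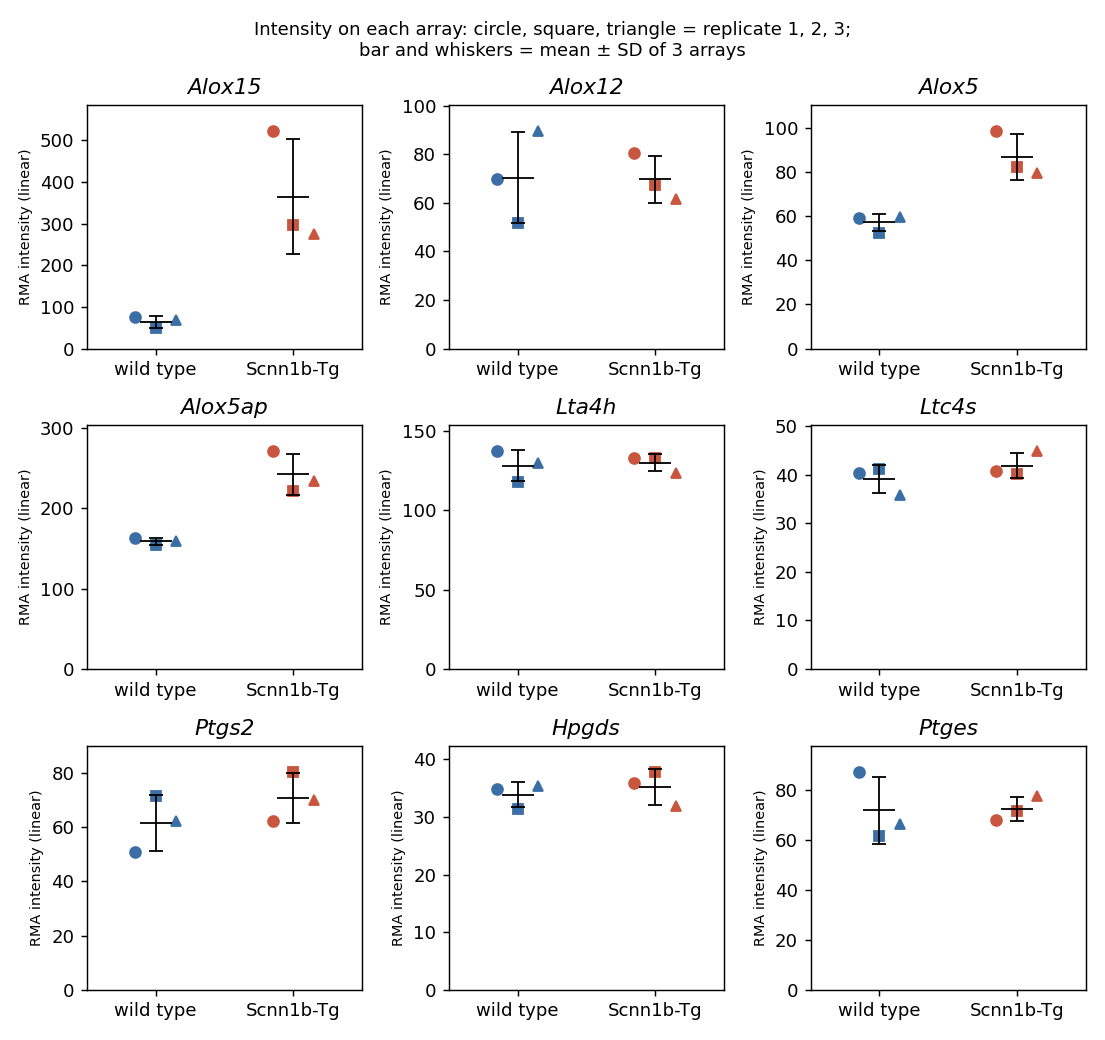
RMA intensity on a linear axis from 0 for the 9 measured genes on each of the 6 arrays. Points are single arrays, shaped by replicate number, and bars with whiskers are the mean ± SD of 3 arrays. Alox15 lies at 48.4 to 76.7 in wild type and 274 to 523 in Scnn1b-Tg, Alox5 and Alox5ap are also fully separate, and the other 6 genes overlap.

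Among the lipoxygenases, Alox15 oxygenates arachidonic acid to 12- and 15-hydroperoxy products. Its intensity on the wild-type arrays was 76.7, 48.4 and 68.3, and on the transgenic arrays 523, 295 and 274. The groups did not overlap, and the highest transgenic array, replicate 1, stood well above the other 2. The means were 64.5 ± 14.5 and 364 ± 138 (SD, n = 3), and the log2 fold change was 2.46 ± 0.27 (SE, 95% interval 1.82 to 3.10), which is 5.50-fold on the scale of mean log2 values. Its p-value ranked 5th of all genes (adjusted p = 0.109 in limma). Without both arrays that stood apart the log2 fold change was 2.44, and without Scnn1b-Tg replicate 1 it was 2.17. The adjusted p of Alox15 ran from 0.00317 to 0.503 over 16 alternatives and passed in 2, namely when the 6645 dimmest genes were dropped (0.00317) and when 16 was taken off every intensity (0.00650).

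Alox12, the platelet-type 12-lipoxygenase, gave intensities of 69.9, 51.9 and 89.8 in wild type and 80.4, 67.2 and 61.4 in Scnn1b-Tg. Both the lowest and the highest of these values came from wild type, and the groups overlapped fully. The log2 fold change was 0.01 ± 0.20 (SE, 95% interval -0.46 to 0.48). The 0.60 fitted for Alox5 lay outside this interval, but the lower end of Alox5's own 95% interval, 0.38, lay inside it. Over single arrays left out the log2 fold change of Alox12 ran from -0.19 to 0.20. The spread of Alox12 between arrays followed that of the mean of platelet markers, a relation picked after the values were seen. Over the 6 arrays its log2 intensity had a Pearson's r of 0.979 (exact permutation p = 0.00139, two-sided) and a Spearman's rho of 1 (exact permutation p = 0.00278) with the mean of 6 platelet markers, which include the platelet chemokine Ppbp. Adjusted over the 13 marker lists compared with Alox12, these were 0.0181 and 0.0361. Because the relation was picked from these same arrays, the p-values describe them and are no independent support. Without the 2 arrays farthest from the median of the platelet mean, wild type replicates 2 and 3, r was 0.994 over 4 arrays. The B cell markers came next (r = 0.867, adjusted exact p = 0.162). Ppbp itself lay at 259, 115 and 511 in wild type and at 403, 281 and 202 in Scnn1b-Tg. Its log2 values less their mean ran from -1.20 to 0.94, so it weighs heavily in the platelet mean. Not every platelet marker followed Alox12. Pf4 was highest on Scnn1b-Tg replicate 3 (0.25 above its mean), where Alox12 was at -0.17.

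Alox5 converts arachidonic acid to leukotriene A4. It had intensities of 59.4, 52.6 and 59.8 in wild type and 98.9, 82.3 and 79.9 in Scnn1b-Tg. The groups were separate, and the wild-type arrays lay close together. The log2 fold change was 0.60 ± 0.09 (SE, 95% interval 0.38 to 0.82), or 1.52-fold, with an adjusted p of 0.169 in limma. Alox5ap, which presents arachidonic acid to Alox5, had intensities of 163, 155 and 160 in wild type and 271, 222 and 234 in Scnn1b-Tg. The groups were again separate, with replicate 1 the highest transgenic array as for Alox5. Its log2 fold change was 0.60 ± 0.08 (SE, 95% interval 0.42 to 0.78), also 1.52-fold, with an adjusted p of 0.127 in limma. Over 16 alternatives the adjusted p ran from 0.0290 to 0.561 for Alox5 and from 0.0211 to 0.503 for Alox5ap. Each passed in 2 of them, when the dimmest genes were dropped (0.0290 and 0.0211) and when limma's variance followed an intensity trend with robust estimation (0.0290 and 0.0231). Without both arrays that stood apart the log2 fold changes were 0.60 and 0.60.

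Promoters are shown for 3 members that differ in this respect: Alox5, whose groups were separate, and Alox12 and Ptgs2, whose groups overlapped. Each runs 5′ to 3′ from 250 bases before to 50 after the gene's start in RefSeq (GRCm38.p6), with the GC box GGGCGG, read on both strands, in capitals.
Alox5 (chr6:116461129-116461428, minus strand): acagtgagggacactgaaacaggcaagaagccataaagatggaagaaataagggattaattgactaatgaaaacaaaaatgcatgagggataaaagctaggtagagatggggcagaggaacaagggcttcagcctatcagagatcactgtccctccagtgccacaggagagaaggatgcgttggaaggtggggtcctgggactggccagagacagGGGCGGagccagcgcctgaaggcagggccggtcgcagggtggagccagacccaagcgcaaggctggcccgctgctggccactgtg
Alox12 (chr11:70255321-70255620, minus strand): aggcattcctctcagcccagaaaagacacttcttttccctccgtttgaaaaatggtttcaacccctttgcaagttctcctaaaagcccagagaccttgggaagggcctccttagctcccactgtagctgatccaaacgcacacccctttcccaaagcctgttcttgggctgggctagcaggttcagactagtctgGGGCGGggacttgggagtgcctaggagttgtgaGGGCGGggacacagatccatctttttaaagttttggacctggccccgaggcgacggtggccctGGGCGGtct
Ptgs2 (chr1:150099781-150100080, plus strand): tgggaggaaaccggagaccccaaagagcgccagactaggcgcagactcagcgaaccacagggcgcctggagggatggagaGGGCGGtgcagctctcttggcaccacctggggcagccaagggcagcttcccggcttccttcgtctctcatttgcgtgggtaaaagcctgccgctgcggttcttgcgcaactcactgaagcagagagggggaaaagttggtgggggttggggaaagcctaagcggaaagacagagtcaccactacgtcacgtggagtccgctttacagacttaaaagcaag
The GC box stood 35 bases before the start in Alox5, 55 and 22 bases before and 41 bases after it in Alox12, and 170 bases before it in Ptgs2. Alox15 and Alox5ap had no entry in the promoter table, so their promoters were not searched for any of these motifs. Of 7 measured members with an entry, 4 held GGGCGG, as did 35.7% of all 32851 promoters of this length. The letters TATAAA were in 0 of the 7 and in 13.6% of all promoters. The STAT6-type palindrome of TTC, any 4 bases and GAA was in 1 of the 7, Ptges, 197 bases before its start, and in 6.95% of all. GGGCGG was thus present both in a gene with separate groups and in genes without, and these matches describe letters, not sites in use.

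The enzymes downstream of Alox5 and Alox5ap had overlapping groups. Lta4h, the LTA4 hydrolase, had intensities of 137, 118 and 130 in wild type and 133, 133 and 124 in Scnn1b-Tg. Its log2 fold change was 0.02 ± 0.07 (SE, 95% interval -0.14 to 0.18), and it was -0.039 without wild type replicate 2. Ltc4s, the LTC4 synthase, had 40.4, 41.1 and 35.7 in wild type and 40.7, 40.04 and 44.8 in Scnn1b-Tg. The log2 fold change of Ltc4s was 0.10 ± 0.07 (SE, 95% interval -0.07 to 0.27), and 0.036 without wild type replicate 3. For both enzymes the arrays of the genotypes were interleaved, and the upper ends of the intervals lay below the 0.60 of Alox5.

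In the prostaglandin branch no member had separate groups. Ptgs2, the inducible cyclooxygenase, gave 51.0, 71.6 and 62.5 in wild type and 62.1, 80.4 and 69.9 in Scnn1b-Tg. Its highest value was transgenic and its lowest wild type, with 2 wild-type arrays between the transgenic ones, and the log2 fold change was 0.20 ± 0.14 (SE, 95% interval -0.13 to 0.54). Leaving out wild type replicate 1 gave 0.074, while leaving out replicate 2 of that group gave 0.32. Hpgds, the haematopoietic PGD2 synthase of mast cells and T helper 2 cells, lay between 31.4 and 35.3 in wild type and between 31.8 and 37.8 in Scnn1b-Tg. Its log2 fold change was 0.05 ± 0.08 (SE, 95% interval -0.13 to 0.24), and 0.00038 to 0.12 over single arrays left out. Ptges, the inducible microsomal PGE2 synthase, lay between 61.5 and 87.1 in wild type and between 67.9 and 77.4 in Scnn1b-Tg, so that the wild-type arrays enclosed the transgenic ones. Its log2 fold change was 0.03 ± 0.13 (SE, 95% interval -0.28 to 0.33).

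The genotype difference of Alox15 was set against that of each other member on the same arrays. The per-array log2 value of Alox15 less that of the other gene was higher in Scnn1b-Tg by 1.86 for Alox5 and Alox5ap, by 2.26 for Ptgs2 and by up to 2.45, for Alox12. In each of the 8 comparisons the exact two-sided permutation p was 0.1, the smallest that 3 arrays against 3 can give, and it was 0.1 after adjustment over the 8. A ratio within an array shows unequal change of the genes and not which of them moved.

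Alox15 lies in a cluster of lipoxygenase genes, and its neighbours on the chromosome were read from the gene order of GRCm38.p6, a step added after the data were seen. Alox12e and Alox12 are the next protein-coding genes on one side, and Pelp1 and Arrb2 on the other. The log2 fold change was 0.03 ± 0.08 (SE) for Alox12e and 0.01 ± 0.20 for Alox12, against 2.46 for Alox15. Over the 12 nearest genes, 6 on each side, log2 fold changes ran from -0.11 to 0.18, and 0 were called in limma. At an unadjusted p under 0.05 there was 1, Zmynd15 (0.18 ± 0.06, SE, and 0.12 without wild type replicate 1). It was also the 1 gene of the 12 whose transgenic arrays all lay above wild type. Among all genes 3.96% were higher at that threshold and 6.26% lay wholly above.

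**Figure D2:**
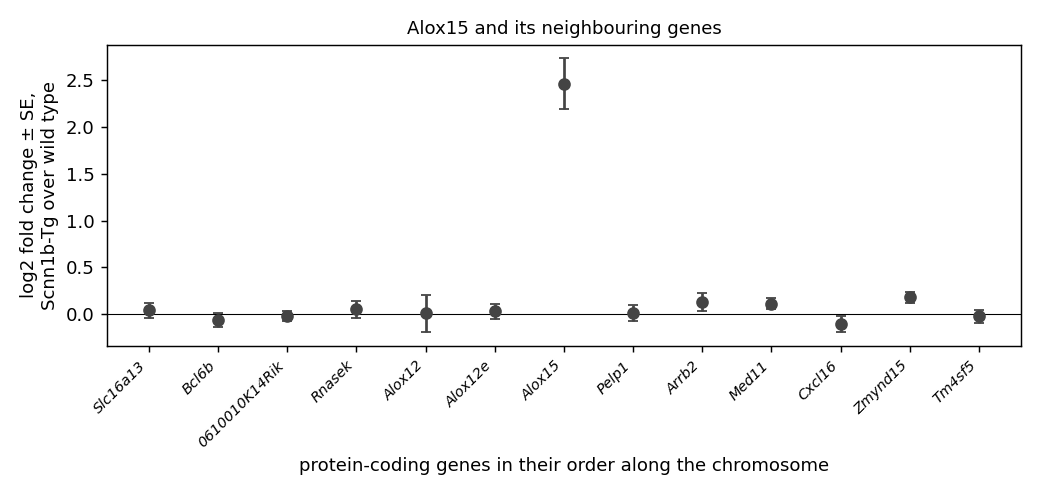
Log2 fold change ± SE (Scnn1b-Tg over wild type) of Alox15 and the 6 nearest protein-coding genes on each side, in their order along the chromosome. Alox15 stands at 2.46 and the 12 neighbours between -0.11 and 0.18.

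The genes whose values over the 6 arrays were most like those of Alox15 were sought by the root mean square difference of log2 values, each gene centred on its mean. In order, they were Rnase2a (log2 fold change 1.66), Mmp12 (1.95), Scnn1b itself (3.37), Retnlg (1.38) and Retnla (1.54). Rnase2a is of the eosinophil-associated ribonuclease family, a name that does not fix its cell of origin here. It was dim in wild type (37.0, 23.4 and 24.0), and its log2 fold change was 2.71 with 16 taken off every intensity. Mmp12 is the macrophage elastase. Retnlg is a resistin-like gene of neutrophils, and Retnla one of alternatively activated macrophages. For all 5 the transgenic arrays lay above the wild-type arrays. This measure favours genes with a genotype difference of similar size, and it is given as a description of 6 arrays. Alox5 (0.96) and Alox5ap (0.97) were the members nearest to Alox15 on it, and the other 6 lay between 1.24 and 1.27.

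Around the members, 71 of 79 further genes of eicosanoid release, synthesis, transport, breakdown and reception were measured. None was called in limma over all genes. At an unadjusted p under 0.05, 4 were higher and 2 lower, and arrays were wholly above wild type for 5 and wholly below for 2. Their median log2 fold change was 0.02, against 0.0052 for all genes. Among all genes 3.96% were higher and 2.05% lower at that unadjusted p, and 6.26% lay wholly above and 4.41% wholly below. The shares of the lists are near these, so the lists as a whole did not stand out by count. The larger single values are given by role below.

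Of the 17 genes that release, hydrolyse or reincorporate arachidonate and related lipids, 1 was higher at an unadjusted p under 0.05. That share is near the 3.96% of all genes. The gene was Pla2g7, a secreted hydrolase of platelet-activating factor and oxidised phospholipids made by macrophages. Its intensity was 92.8, 78.1 and 88.5 in wild type and 197, 145 and 143 in Scnn1b-Tg. The groups were separate by a wide margin and replicate 1 was again the highest transgenic array. Its log2 fold change was 0.89 ± 0.13 (SE, 95% interval 0.58 to 1.21, adjusted p = 0.151 in limma, range over 16 alternatives 0.0196 to 0.561). Pla2g6, a calcium-independent phospholipase A2, gave 0.22 ± 0.11, and 0.036 without both arrays that stood apart. The 4 other lipoxygenases (Alox8, Alox12b, Alox12e and the epidermal Aloxe3) had 2 fitted values above and 2 below 0 and none at an unadjusted p under 0.05. Among these, Aloxe3 gave 0.10 ± 0.05 and Alox12b -0.07 ± 0.05, which without both arrays that stood apart was -0.0047.

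Of 8 genes of leukotriene processing and export, Cyp4f18, a P450 that hydroxylates and so inactivates LTB4 in mouse neutrophils, had the largest value. Its intensity was 60.7, 52.7 and 48.9 in wild type and 134, 84.3 and 65.03 in Scnn1b-Tg. The groups were separate, although the lowest transgenic array was close to the highest wild-type array. The log2 fold change was 0.74 ± 0.24 (SE, adjusted p = 0.732 in limma), and without Scnn1b-Tg replicate 1 it was 0.46. Dpep2, a dipeptidase that converts LTD4 to LTE4, gave -0.12 ± 0.08, and -0.039 without Scnn1b-Tg replicate 1. Of 6 other prostanoid synthases, Tbxas1, the thromboxane synthase, was separate between genotypes (51.7 to 69.9 against 71.8 to 92.4), with a log2 fold change of 0.33 ± 0.14 (SE, 95% interval -0.0072 to 0.67). Without wild type replicate 2 that of Tbxas1 was 0.19, and without Scnn1b-Tg replicate 1 it was 0.21. Ptges2 gave 0.10 ± 0.06, and 0.055 without Scnn1b-Tg replicate 1.

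Of 5 genes that take up or inactivate prostaglandins, Hpgd and Ptgr2 were lower at an unadjusted p under 0.05, where 2.05% of all genes were. Hpgd, the 15-hydroxyprostaglandin dehydrogenase that begins the breakdown of PGE2, had intensities of 1939, 2139 and 2259 in wild type and 1766, 1809 and 1740.1 in Scnn1b-Tg. All transgenic arrays lay below all wild-type arrays, and the log2 fold change was -0.25 ± 0.06 (SE, adjusted p = 0.484 in limma). Ptgr2, a 15-oxo-prostaglandin reductase that acts on the product of Hpgd, had 184, 208 and 183 in wild type and 155, 154 and 158 in Scnn1b-Tg. It was likewise separate, with a log2 fold change of -0.30 ± 0.06 (SE, adjusted p = 0.304 in limma). The other 3 had overlapping groups, with -0.08 ± 0.10 for the prostaglandin transporter Slco2a1, -0.05 ± 0.08 for Ptgr1 and 0.02 ± 0.05 for Akr1c18.

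Among receptors, 2 of 9 for prostanoids had unadjusted p-values under 0.05, both higher, where 3.96% of all genes were. Ptgir, the prostacyclin receptor, lay between 44.5 and 47.2 in wild type and between 51.0 and 60.6 in Scnn1b-Tg (log2 fold change 0.27 ± 0.07, SE, adjusted p = 0.546 in limma). Ptger4, a receptor of PGE2, lay between 43.1 and 48.7 against 49.1 and 57.9 (0.21 ± 0.08, adjusted p = 0.764, and 0.14 without Scnn1b-Tg replicate 2). Their groups did not overlap, although the nearest arrays of Ptger4 were close to each other. None of 7 receptors for leukotrienes and resolvins passed an unadjusted p under 0.05, with 0.16 ± 0.09 for the cysteinyl leukotriene receptor Cysltr1 and 0.09 ± 0.06 for the LTB4 receptor Ltb4r1. Without both arrays that stood apart Cysltr1 was 0.011, and without wild type replicate 2 Ltb4r1 was 0.044. The 8 genes of epoxyeicosanoids gave none either, with -0.27 ± 0.14 for Ephx1, which had an intensity of 380 on wild type replicate 2 and 245 to 292 on all other arrays, and 0.06 ± 0.05 for the soluble epoxide hydrolase Ephx2. Without wild type replicate 2 these were -0.11 and 0.037. Nor did the 7 genes of IL-4 and IL-13 signalling, the known upstream signal of Alox15, with 0.16 ± 0.09 for the kinase gene Jak1 and 0.07 ± 0.05 for the receptor chain Il4ra. Without Scnn1b-Tg replicate 3 Jak1 was 0.080, and without Scnn1b-Tg replicate 2 Il4ra was 0.038. The cytokine genes themselves were dim, with Il4 at 29.1 to 33.2 and Il13 at 36.0 to 43.4 over all arrays. Their log2 fold changes were 0.06 ± 0.06 and 0.09 ± 0.08, and at such intensities an unchanged upstream signal cannot be read from them.

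**Figure D3:**
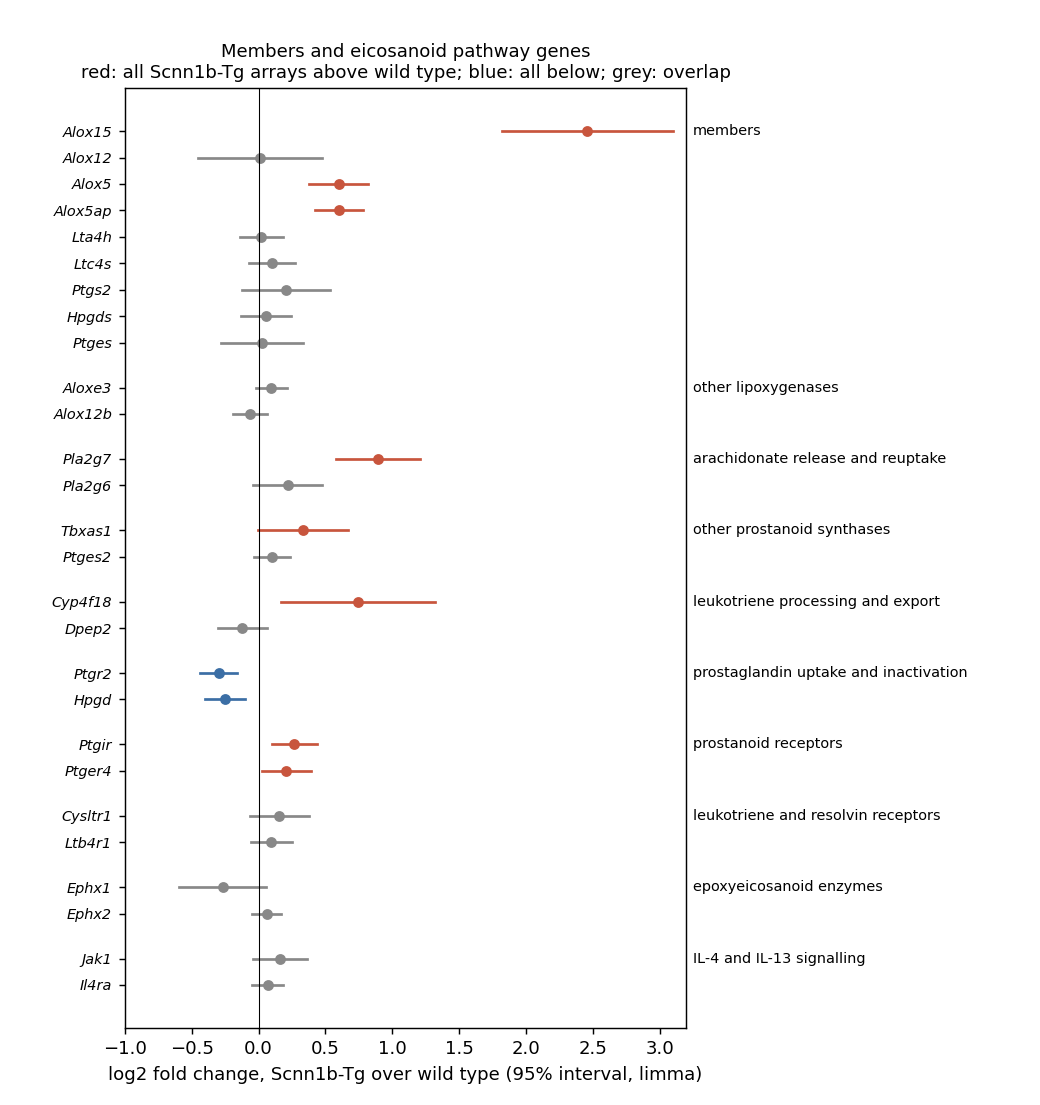
Log2 fold change (Scnn1b-Tg over wild type) with its 95% interval from limma for the 9 measured members and the 2 genes with the smallest p of each of 9 pathway lists. Red marks genes whose transgenic arrays all lay above wild type, blue all below and grey overlap, with Alox15 at 2.46, Pla2g7 at 0.89 and Ptgr2 at -0.30.

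Markers of several leukocytes had higher values in Scnn1b-Tg lung, although none of the markers on any cell type list passed an adjusted p under 0.05 in limma. Of all genes 3.96% were higher at an unadjusted p under 0.05 and 6.26% lay wholly above wild type. Of 9 markers of monocytes and interstitial macrophages, 8 were higher at an unadjusted p under 0.05 and had separate groups, and their summed intensity was 790 to 840 in wild type and 1072 to 1226 in Scnn1b-Tg. Itgam, the CD11b chain, gave a log2 fold change of 0.91 ± 0.15 (SE), Adgre1, the F4/80 antigen, 0.76 ± 0.17, and Csf1r 0.37 ± 0.08. Of 8 alveolar macrophage markers, 4 were higher in this way, among them the chitinase-like Chil3 (1.34 ± 0.19) and Itgax (0.53 ± 0.08). The other 4 had overlapping groups: Marco (0.01 ± 0.12), Pparg (0.07 ± 0.10), Car4 (-0.06 ± 0.10) and Krt79 (-0.14 ± 0.10). The sums of all 8 were 1708 to 2062 and 3048 to 3737, of which Chil3 alone gave 740 to 1144 and 1945 to 2748. Of 7 eosinophil markers, 4 were higher at that threshold, with sums of 273 to 278 and 326 to 514. Of these 4, Siglecf (0.39 ± 0.09) stands on the alveolar macrophage list too. Il5ra (0.22 ± 0.06), also 1 of the 4, was dim, at 22.1 to 27.6 over all arrays. Prg3 (-0.0017 ± 0.07) and Ear6 (0.21 ± 0.14) had overlapping groups. The eotaxin receptor Ccr3 gave 1.40 ± 0.32, the granule gene Prg2 0.41 ± 0.17 (0.20 without Scnn1b-Tg replicate 1), and the eosinophil peroxidase Epx 0.07 ± 0.05, with Epx at 25.0 to 28.02 on all arrays, close to the lowest intensities measured.

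Of 9 neutrophil markers, 3 were higher at an unadjusted p under 0.05 (sums 433 to 565 and 668 to 924, to which Retnlg gave 94.4 to 189 and 245 to 562). Other markers on that list had overlapping groups, among them S100a8 (-0.08 ± 0.12), S100a9 (0.04 ± 0.14) and Ly6g (0.04 ± 0.08). Of 9 mast cell markers 1, Hdc (0.23 ± 0.07), was higher at that threshold (sums 744 to 798 and 764 to 790). Cpa3 was not, at 0.12 ± 0.06 (0.062 without both arrays that stood apart). Of 6 platelet markers 0 were higher at that threshold (sums 382 to 880 and 522 to 782). The 5 club cell markers all had fitted values below 0, and 3 were lower at an unadjusted p under 0.05 with all transgenic arrays below wild type, where 2.05% and 4.41% of all genes were. Their sums were 6966 to 8308.5 in wild type and 5833 to 6173 in Scnn1b-Tg, alongside the lower values of Hpgd and Ptgr2, and Scgb1a1 gave a log2 fold change of -0.31 ± 0.07. Scnn1b-Tg replicate 1 was the highest of the transgenic arrays for Alox15, Alox5, Alox5ap, Pla2g7 and Cyp4f18, and also for the means of the eosinophil list (0.43 above the mean of all arrays, against 0.14 and 0.0085) and of the monocyte and interstitial macrophage list (0.37, against 0.16 and 0.22). Replicate 1 was also the highest of them for the platelet (0.25, against -0.014 and -0.10) and B cell lists (0.24, against -0.16 and 0.05). So it was for the mast cell and fibroblast lists, so this trait is not particular to eosinophils and monocytes. For the alveolar macrophage list it was the lowest of them (0.06, against 0.18 and 0.20). The T cell, club cell, alveolar type 1, alveolar type 2 and endothelial lists were also lowest there. The part of these cell types in the values of Alox15, Alox5, Alox5ap, Hpgd and Ptgr2 was not tested.

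**Figure D4:**
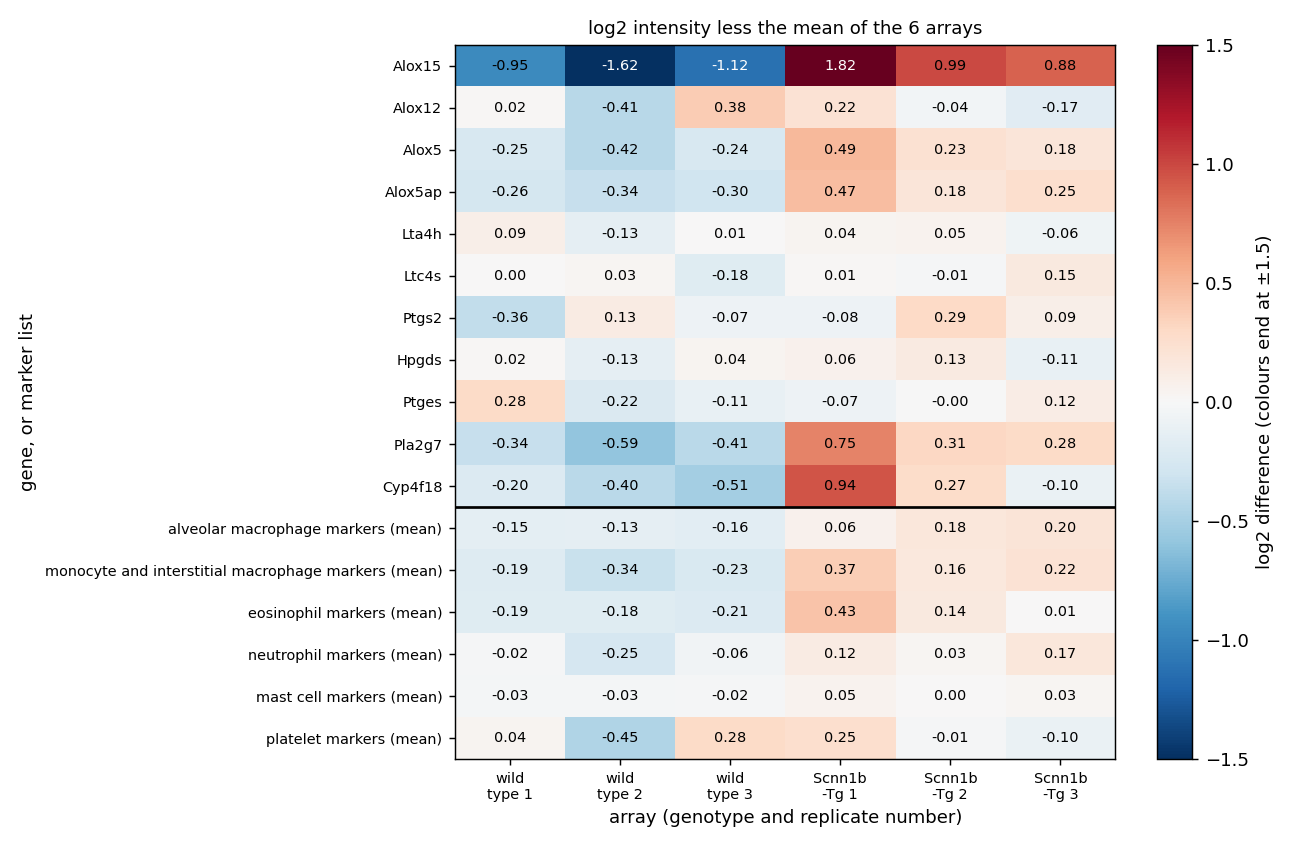
Log2 intensity less the mean of the 6 arrays, for the 9 measured members, Pla2g7 and Cyp4f18 (above the line) and for the mean of 6 leukocyte and platelet marker lists (below it), with 1 column per array. Colours end at ±1.5 and the printed numbers are the values; Alox15 runs from -1.62 to 1.82, and Alox12 and the platelet mean are both lowest on wild type replicate 2 (-0.41 and -0.45).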

How the data were processed

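Lung RNA of 3 wild-type and 3 Scnn1b-Tg samples was hybridised to Affymetrix arrays, and groups were taken from the labels. The authors deposited 1 linear intensity per probe set and sample, computed with RMA per the submitters' processing notes. Settings of RMA are not stated in the labels, and linearity was read from the values. Any constant added before deposit would shrink the log2 fold changes of dim genes. Of 28815 probe sets, 21780 had exactly 1 gene symbol, and the brightest per gene gave 19935 genes.

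Genotypes were compared on the log2 scale in R 4.3.3 with limma 3.58.1 (lmFit and eBayes, 1 term for genotype, 4 residual degrees of freedom). Tests were two-sided, p-values were adjusted by Benjamini-Hochberg across the 19935 genes, and the threshold was 0.05. The fit was tested on simulated data. The number of arrays limits the precision. No batch is given in the labels. Members and lists were chosen with earlier results of these data known. Named are the members, Scnn1b, the 2 smallest p-values of each pathway list, the 5 genes most like Alox15 and up to 3 markers of a cell type list. Beyond that rule come Retnlg among neutrophil markers, Sftpc, Scgb1a1, the remaining Alox genes and the genes next to Alox15. Other alveolar macrophage and eosinophil markers, Il4 and Il13 are named as well. Alternatives were quantile normalization, median centring, dropping dim genes, other probe set rules, a variance trend, array weights, a replicate block, 16 taken off each intensity, and arrays left out. The smallest exact permutation p with 3 arrays against 3 is 0.1. Promoter sequences came from RefSeq (GRCm38.p6), where 7 of 9 measured members had an entry.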

Additional observations from a re-analysis of the deposited data

How the results depend on the processing

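Precision was limited by 3 arrays per genotype and by dim signals such as Hpgds and Ltc4s. The count of genes called was 1, and it became 39 when the 6645 dimmest genes were dropped, 36 when the variance followed an intensity trend with robust estimation, 23 after 16 was taken off every intensity and 6 without both arrays that stood apart. Leaving out single arrays gave 0 to 5 (5 without Scnn1b-Tg replicate 3, and 0 in limma without wild type replicate 3, where 1011 genes had an unadjusted p under 0.05). The count of members called was 0, but 3 with the dimmest genes dropped, 2 with the trend and 1, Alox15, with 16 taken off. With the replicate number as a block, 3 genes and 0 members were called, and Alox15 had an adjusted p of 0.0516 in limma. Deviations of same-numbered samples from their genotype means correlated at 0.026, 0.028 and 0.039 across genes, so the numbers were not taken to pair the samples, although every sample correlated best with its own number.

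Alox15, Alox5, Alox5ap, Ptgs2, Ltc4s and Hpgds kept their direction in the alternatives run. Alox12 turned to -0.0099 with quantile normalization, -0.015 with median centring, -0.062 with array weights and -0.11 without both arrays that stood apart, and single arrays left out gave -0.19 to 0.20. Lta4h turned to -0.0059, -0.0030 and -0.0042 with quantile normalization, median centring and without both arrays, and single arrays gave -0.039 to 0.072. Ptges turned to -0.0069 with quantile normalization and -0.13 without both arrays, and single arrays gave -0.076 to 0.17. The platelet gene Ppbp was -0.11 without both arrays, and single arrays gave -0.36 to 0.72. The log2 fold change of Scnn1b was 3.38 without wild type replicate 3, with an adjusted p of 0.0559 in limma. The cause of these changes was not tested.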
